A study of Mus musculus with 8 samples.

Results

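The genes described here are 44 named genes whose products carry signals inside leukocytes, from the actin regulators Was and Coro1a to the tyrosine kinase Lyn and the phosphatases Ptpn6 and Ptpn22. They were listed by symbol and found on the arrays by the RefSeq accession of each probe. All 44 had a probe, among 20145 genes with one, and 39 of the 44 had a probe bright enough to test, among 14519 genes tested.

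The arrays measured RNA of C57BL/6 mouse cells of the iRUNX1 line, in which doxycycline switches on a Runx1 gene (Tet-on). Runx1 is a transcription factor needed for blood cells to form from endothelium. Embryoid bodies of stem cells were taken apart after 3.25 days, cells with Flk-1, a receptor of early blood and endothelium, were isolated on magnetic columns before and after a culture in blast medium, and the second isolate was cultured for 2 days as hemogenic endothelium, the endothelium that gives rise to blood. The induced group received doxycycline overnight at 0.3 µl/ml (the unit in the labels), and the uninduced group, labelled control, was the same iRUNX1 culture without doxycycline. There were 3 induced and 3 uninduced biological replicates, with 1 technical repeat array per group that stayed out of every test. How independent the 3 replicates are rests on the labels, and the p-values measure only the spread between these arrays. The effects of Runx1 and of doxycycline itself cannot be told apart in this design.

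In leukocytes, receptors without an enzyme of their own recruit kinases of the Src, Syk and Tec families, which phosphorylate adaptor proteins such as Lat, Blnk and Lcp2. The adaptors gather phospholipase C gamma, Vav exchange factors and phosphoinositide 3-kinases, which open the routes through protein kinase C, Ras and Rac to the actin cytoskeleton. Phosphatases such as Ptpn6, Ptpn22 and Inpp5d restrain the same steps. Many of these genes have a close relative that most tissues use, such as Wasl beside Was.

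Of the 39 genes tested, 12 rose in induced cells, 0 fell and 27 did not pass (limma, adjusted p under 0.05 over all genes tested). This main fit leaves out the pairing of arrays by replicate number. With the replicate number as a block, 20 rose and 3 fell, against 9.37% and 6.8% of all genes. In the main fit 21 members, or 53.8%, had an unadjusted p under 0.05, against 21.6% of all genes. Among all 14519 genes tested, 4.14% rose and 2.16% fell, or 6.3% in all. The 12 were Was, Coro1a, Myo1f, Myo1g, Vav3, Lyn, Lat, Ptpn6, Ptpn7, Ptpn22, Plcg2 and Prkcb, or 30.8% of the members tested and 27.3% of those listed. Of these changes, 11 were at least 2-fold, and the range was 0.59 for Lyn to 5.52 for Ptpn22 on the log2 scale. In all 12 the groups did not overlap, so each was also higher on the induced array in the 3 replicate pairs. That is a property of the arrays that gave the calls and not a further test. All 12 were higher on the induced technical repeat too, where the smallest difference was 0.38, but a technical repeat is not an independent sample. The median change over the 39 genes was 0.70, against 0.09 over all genes. The members were chosen with earlier results of these data known, so their shares and median are descriptions and not tests.

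Levels in the text are log2 processed signals of a gene's brightest kept probe, relative to the 75th percentile of the array, and a change is the induced mean minus the uninduced mean with its standard error (SE) from limma. A level cannot be set against that of another gene, since each probe has its own brightness. With the replicate number as a block, 20 of the 39 genes rose and 3 fell, against 9.37% and 6.8% of all genes. Adding the block brought in rises of Blnk, Btk, Hcls1, Inpp5d, Lcp1, Pik3cg, Plek and Rasgrp2 and falls of Arhgdib, Rasgrp3 and Syk. With the 4 brightest spike-in probes as the scale, every change was higher by 1.13, the median of all genes was 1.22 and 15 members rose. The 1.13 is the mean of shifts of 1.02, 0.75 and 1.61 in replicates 1, 2 and 3 (SD 0.44). Between the technical repeats the shift was 0.35, so a sign that turns on the spike-in scale depends on an uneven shift. On that scale Vav3 (adjusted p = 0.0546) and Lyn (adjusted p = 0.157) did not pass. Of the 11 members with a lower induced mean, 10 were higher on that scale, and Rasgrp3 (-0.32) was not. Of the members, 8 were kept only because they were well above background on all 3 induced arrays, a filter that favours higher levels there. They are Myo1f, Myo1g, Nckap1l, Btk, Zap70, Blnk, Ptpn22 and Prkcb, and 4 of them rose.

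**Figure D1:**
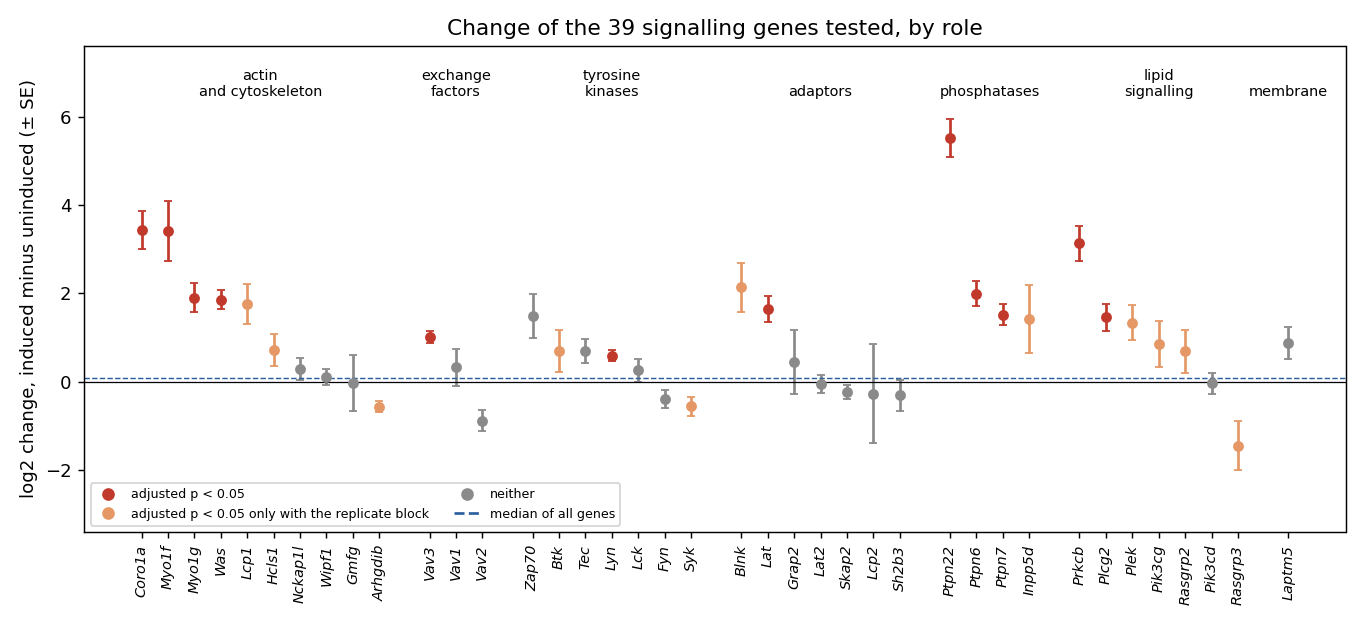
Log2 change, induced minus uninduced, of the 39 genes tested, by role, with bars of ± SE from limma (3 arrays per group). The 12 red genes rose and run from 0.59 for Lyn to 5.52 for Ptpn22, orange genes passed only with the replicate block, and the dashed line is the median of all genes, 0.09.

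Array brightness, as the 75th percentile of processed signals, was 543 to 973 on the induced arrays and 338 to 699 on the uninduced ones, and 55.6% to 70.4% of spots were well above background. The number of arrays limits the precision. Runx1 itself read -6.14, -5.71 and -4.95 on the induced arrays, against -4.71, -4.72 and -4.28 on the uninduced arrays (2 and 3 of them well above background). Its other probe was not well above background on any array, and whether the probes lie in the inducible construct is not stated in the labels or files, so it does not check the labels. All 9 endothelial markers, such as Cdh5 and Kdr, were measured, 0 rose and Tek and Eng fell, with summed levels of 5.83 to 6.87 in induced cells and 6.18 to 7.48 in uninduced cells. Sums are log2 of a list's summed linear signals. Of 6 blood progenitor markers Spn and Itgal rose (sums 5.16 to 6.2 in induced cells and 5.62 to 6.04 in uninduced cells). Ptprc (-0.19), Cd34 (-0.24), Kit (0.57) and Itga2b (0.63) did not pass. Cd34 alone read 5.06 to 6.02 in induced cells and 5.58 to 5.95 in uninduced cells, so these sums mostly follow Cd34. Of macrophage and granulocyte markers 6 of 7 were measured and Csf1r fell (sums 5.11 to 5.73 in induced cells and 5.66 to 5.88 in uninduced cells). Of 6 T cell markers, Cd3e, Cd4 and Cd8a were tested and 0 passed (sums 3.14 to 3.34 in induced cells and 2.98 to 3.92 in uninduced cells), while Cd3d, Cd3g and Cd247 were not well above background in either group. Of 5 B cell markers, Cd79a and Cd79b were tested and 0 passed (sums -4.03 to -2.53 in induced cells and -3.86 to -2.01 in uninduced cells), while Ms4a1 was not well above background in either group. Red cell markers (4 of 5 tested) and mesenchymal markers (5 of 5) had 0 past the threshold, with red cell sums of 1.51 to 3.51 in induced cells and 2.17 to 5.92 in uninduced cells. Mesenchymal sums were 9.13 to 9.37 in induced cells and 9.56 to 9.78 in uninduced cells, which did not overlap. The sums were not tested. Acta2 was lower on every induced array (change -0.65, adjusted p = 0.0542). The other mesenchymal changes ran from -0.48 for Pdgfrb to 0.03 for Col1a1, with overlapping groups. Of 4 megakaryocyte markers 3 were tested and Pf4 rose, while Gp9 (adjusted p = 0.215) and Gp1bb (change -0.14, adjusted p = 0.837) did not pass. Their sums were 2.52 to 3.57 in induced cells and -0.14 to 1.37 in uninduced cells. Pf4 alone read 2.38 to 3.41 in induced cells and -0.59 to 0.95 in uninduced cells, so the sums mostly follow this gene. Of 4 mast cell markers 1 was tested, Mcpt4, and rose, while Fcer1a and Ms4a2 were not well above background in either group (sums -0.36 to 1.15 in induced cells and -4.80 to -3.80 in uninduced cells). The part these cell types play in the members' changes was not tested. In a bulk culture, more cells of a type and more RNA per cell cannot be told apart.

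Promoter sequences are shown for 3 genes that rose and hold the RUNX core motif, and for 1 that rose and lacks it, chosen after their values were seen, since Runx1 is the induced factor. Each is the 250 bases before the gene's start in RefSeq on GRCm38.p6, given 5′ to 3′ on the gene's strand, with the motif (TGTGGT, or ACCACA on the other strand) in capitals.
Was, chrX:8090492-8090741, minus strand: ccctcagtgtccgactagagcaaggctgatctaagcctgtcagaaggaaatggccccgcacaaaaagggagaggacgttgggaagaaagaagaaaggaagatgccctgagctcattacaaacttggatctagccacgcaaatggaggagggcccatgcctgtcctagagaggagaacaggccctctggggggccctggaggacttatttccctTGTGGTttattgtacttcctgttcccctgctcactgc
Ptpn22, chr3:103860027-103860276, plus strand: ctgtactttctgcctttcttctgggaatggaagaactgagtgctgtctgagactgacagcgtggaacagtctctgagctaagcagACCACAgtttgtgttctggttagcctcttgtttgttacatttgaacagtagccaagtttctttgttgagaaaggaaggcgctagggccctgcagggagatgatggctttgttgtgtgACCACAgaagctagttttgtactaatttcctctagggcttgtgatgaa
Myo1f, chr17:33555457-33555706, plus strand: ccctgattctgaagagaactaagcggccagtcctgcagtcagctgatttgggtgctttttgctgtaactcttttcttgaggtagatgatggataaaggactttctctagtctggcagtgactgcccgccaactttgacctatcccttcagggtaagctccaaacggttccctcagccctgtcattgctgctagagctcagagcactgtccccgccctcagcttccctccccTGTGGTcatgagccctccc
Prkcb, chr7:122288875-122289124, plus strand: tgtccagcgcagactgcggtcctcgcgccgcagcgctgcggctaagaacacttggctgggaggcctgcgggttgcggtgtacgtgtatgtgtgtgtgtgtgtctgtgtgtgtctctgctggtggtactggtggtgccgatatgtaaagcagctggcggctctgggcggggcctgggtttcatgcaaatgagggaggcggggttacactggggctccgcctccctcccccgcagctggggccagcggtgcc

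The motif begins 37 bases before the start in Was, 165 and 48 bases before it in the Ptpn22 window and 19 bases before it in Myo1f. Of 44 members, 41 had a promoter entry (not Lyn, Lat2 and Nckap1l), in 61 windows because some genes have several starts. The motif was in 7 of 61 windows, or 11.5%, against 14% of all 32851 promoters of that length, a share near that of all promoters. Among the 16 windows of rising genes it was in 3, or 18.8%, all shown above. The motif AGATAA, bound by GATA factors, was in 6.56% of member windows and 9.99% of all, the ETS motif CCGGAAGT in 0 and 2.88%, and GAGGAAGT, a form of the PU.1 motif, in 6.56% and 2.44%. The 4 windows with the last are those of Inpp5d, Pik3cg, Rasgrp3 and Vav1. Among the 16 windows of rising genes, GAGGAAGT and CCGGAAGT were each in 0 and AGATAA was in 1. The GAGGAAGT and CCGGAAGT forms share the letters GGAAGT, and all motifs were counted on both strands. A match here is a match of letters only.

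Among the 10 actin and cytoskeleton genes, 4 rose (Was, Coro1a, Myo1f and Myo1g), 0 fell and the median change was 1.24. Coro1a, which encodes coronin 1A, an actin-binding protein abundant in leukocytes, read 2.24, 2.51 and 0.96 on the induced arrays of replicates 1, 2 and 3, against -1.93, -1.21 and -1.43 on the uninduced arrays. Its change was 3.43 (SE 0.43, adjusted p = 0.0073). The groups did not overlap, though induced replicate 3 was the lowest induced array. For Was, whose protein activates actin branching in blood cells, the induced arrays gave 1.31, 1.66 and 1.51 and the uninduced arrays 0.02, -0.49 and -0.63. It changed by 1.86 (SE 0.21, adjusted p = 0.00569), the groups did not overlap, and the induced replicates spanned 0.35.

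Both class I myosins of blood cells rose. Myo1f read -1.84, -0.79 and -2.52 on the induced arrays, against -4.06, -4.86 and -6.48 on the uninduced ones, which differed by 3.42 (SE 0.69, adjusted p = 0.0364). The uninduced readings of Myo1f and Myo1g were dim, with 2 of 3 arrays well above background for each. For Myo1g the readings were -1.99, -1.50 and -2.69 in induced cells and -3.81, -3.78 and -4.31 in uninduced cells, which differed by 1.90 (SE 0.32, adjusted p = 0.0214). Replicate 3 was the lowest in both groups for both myosins, and no uninduced array reached the lowest induced one. A second probe for Myo1f changed by 2.84. Normexp background correction, which shrinks differences from dim values, gave changes of 1.45 for Myo1f and 1.02 for Myo1g. The call for Myo1f was lost without induced replicate 1 (0.096), uninduced replicate 2 (0.106), induced replicate 2 (0.0983), uninduced replicate 3 (0.0546) or induced replicate 3 (0.0566), where the parentheses hold the adjusted p. For Myo1g it was lost, with the adjusted p in parentheses, without induced replicate 1 (0.0688), uninduced replicate 2 (0.0683), induced replicate 2 (0.0528) or uninduced replicate 3 (0.0649).

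The other actin genes did not pass the test. Lcp1, an actin bundler, read 2.11, 2.31 and 2.10 on the induced arrays, against -0.60, 0.52 and 1.33 on the uninduced ones, a difference of 1.76 (adjusted p = 0.0799). Its groups did not overlap, and with the block the adjusted p was 0.0357. Arhgdib, a regulator of the cytoskeleton and among the brightest members, read 5.36, 5.28 and 5.34 in induced cells and 5.86, 5.94 and 5.86 in uninduced cells, and differed by -0.57 (SE 0.13, adjusted p = 0.0526). It was lower on every induced array, with an adjusted p of 0.0346 with the block, and its sign turned with the spike-in scale (0.56). Normexp gave an adjusted p of 0.0251. Gmfg, which takes apart actin branches, gave 2.66, 4.04 and 4.68 in induced cells and 2.74, 4.25 and 4.48 in uninduced cells, a difference of -0.03 (adjusted p = 0.98). The Gmfg level was low in replicate 1 and high in replicate 3, in both groups. Hcls1, a blood cell relative of cortactin, read 1.37, 2.28 and 2.26 in induced cells and 0.63, 1.39 and 1.73 in uninduced cells, a difference of 0.72 (adjusted p = 0.307), and had an adjusted p of 0.0249 with the block. The groups of Hcls1 overlapped. Wipf1, a partner of Was, differed by 0.11 (adjusted p = 0.752), and its probes gave -0.73 and 0.11, the only tested member with kept probes of opposite sign. Nckap1l, of the complex that drives actin branching at the cell edge, differed by 0.29 (adjusted p = 0.521).

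**Figure D2:**
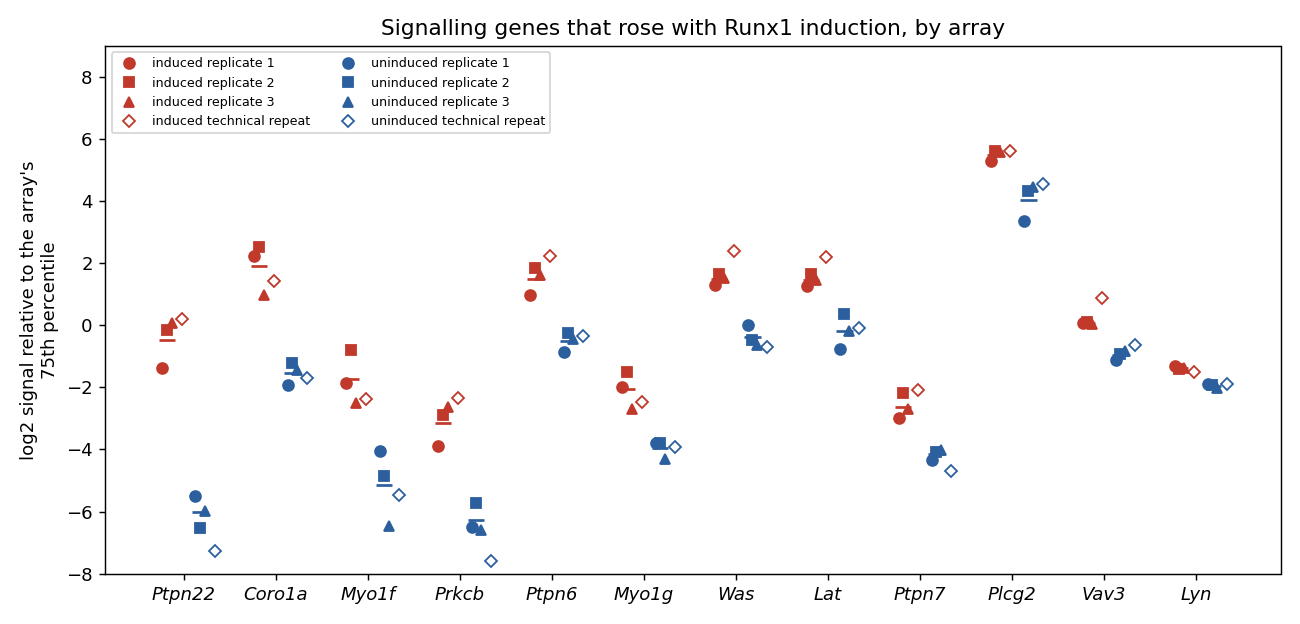
Log2 level relative to the array's 75th percentile of the 12 genes that rose, with a point for each of the 3 induced (left) and 3 uninduced (right) replicates and for the technical repeats. No uninduced array reached the lowest induced array in any of the 12, which were chosen by the test on these same replicates.

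Of the 3 Vav genes, guanine nucleotide exchange factors for Rac, 1 rose, Vav3. It read 0.07, 0.09 and 0.04 on the induced arrays, against -1.11, -0.92 and -0.82 on the uninduced ones, and changed by 1.02 (SE 0.14, adjusted p = 0.0109). Its induced readings spanned 0.05 and lay above all uninduced readings. It missed the threshold without uninduced replicate 2 (adjusted p = 0.0555). Vav1, the Vav of blood cells, differed by 0.32 (adjusted p = 0.673) and Vav2 by -0.88 (adjusted p = 0.0901). Whether Vav3 differs from the other two was not tested.

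Of 7 tyrosine kinases, 1 rose, Lyn, and the median change was 0.59. Lyn, a Src-family kinase, read -1.32, -1.40 and -1.36 on the induced arrays and -1.90, -1.93 and -2.03 on the uninduced arrays, a change of 0.59 (SE 0.13, adjusted p = 0.0479). Its groups were narrow and apart, yet the adjusted p was near the threshold. It was lost without each of the 6 arrays in turn, with adjusted p from 0.0705 to 0.182, and it passed in 8 of the 20 alternatives other than the deposited table read by column name. The other Src kinases, Lck and Fyn, differed by 0.26 (adjusted p = 0.591) and -0.39 (adjusted p = 0.334). Tec, of the same family as Btk, differed by 0.70 (adjusted p = 0.215), and Zap70, the Syk relative of T cells, by 1.49 (adjusted p = 0.146). Btk, mutated in an inherited antibody deficiency, differed by 0.70 (adjusted p = 0.427), with an adjusted p of 0.0434 with the block. Syk, which binds phosphorylated receptors, differed by -0.55 (adjusted p = 0.202), with 0.034 as adjusted p with the block and a change of 0.58 on the spike-in scale.

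Adaptors had a median change of -0.05, with 1 of 7 tested, Lat, rising and 0 falling. Lat, the transmembrane scaffold of T cell and mast cell signalling, read 1.26, 1.67 and 1.47 on the induced arrays, against -0.76, 0.38 and -0.17 on the uninduced ones, a change of 1.65 (SE 0.30, adjusted p = 0.0258). The groups did not overlap. The adjusted p, in parentheses, missed the threshold without induced replicate 1 (0.0597), induced replicate 2 (0.085), uninduced replicate 3 (0.0741) or induced replicate 3 (0.08). Sh2b3, an inhibitor of cytokine receptor signalling, read 1.03, 1.94 and 2.06 in induced cells and 1.45, 2.20 and 2.30 in uninduced cells, a difference of -0.31 (adjusted p = 0.629). Skap2, an adaptor, gave 2.47, 2.58 and 2.62 in induced cells and 2.62, 2.75 and 2.98 in uninduced cells, a difference of -0.23 (adjusted p = 0.422). Sh2b3 overlapped between the groups, and Skap2 did not, though its nearest arrays read alike to 2 decimals. Blnk, the B cell linker, differed by 2.14 (adjusted p = 0.0806), and had an adjusted p of 0.0384 with the block. Lat2 differed by -0.05 (adjusted p = 0.912) and Grap2 by 0.44 (adjusted p = 0.744). Lcp2, a partner of Lat, differed by -0.27 (adjusted p = 0.906). Fyb, which links Lcp2 to integrins, was well above background on 2 induced arrays and 0 uninduced ones and was not tested.

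The phosphatases were 4, of which 3 rose, with a median change of 1.76. Ptpn22, which dephosphorylates Src-family kinases, read -1.37, -0.15 and 0.06 on the induced arrays, against -5.51, -6.53 and -5.97 on the uninduced ones. It changed by 5.52 (SE 0.43, adjusted p = 0.00213), the groups did not overlap, and 1 uninduced array was well above background. Its normexp change was 2.77. Ptpn6, which restrains many blood cell receptors, read 0.98, 1.85 and 1.62 on the induced arrays, against -0.87, -0.24 and -0.43 on the uninduced ones, a change of 1.99 (SE 0.28, adjusted p = 0.011). Ptpn7, which acts on MAP kinases, gave -2.98, -2.19 and -2.68 in induced cells and -4.33, -4.08 and -4.00 in uninduced cells, a change of 1.52 (SE 0.23, adjusted p = 0.0142). Neither overlapped between the groups. Ptpn7 changed by 0.74 with normexp and missed the threshold without uninduced replicate 2 (adjusted p = 0.0602). Inpp5d, the lipid phosphatase that removes a signalling phosphate of phosphoinositides, read 0.51, 2.23 and 2.49 in induced cells and -1.17, 0.82 and 1.33 in uninduced cells, a difference of 1.41 (adjusted p = 0.338). With the block its adjusted p was 0.0053, and it was higher on the induced array of each replicate although the groups overlapped.

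Among 7 tested genes of lipid signalling, Plcg2 and Prkcb rose, 0 fell and the median change was 0.86. Plcg2, the phospholipase C downstream of Btk, read 5.30, 5.60 and 5.60 on the induced arrays, against 3.35, 4.32 and 4.47 on the uninduced ones, a change of 1.46 (SE 0.31, adjusted p = 0.0436). The groups did not overlap, uninduced replicate 1 being the lowest array. The call was lost, with the adjusted p in parentheses, without induced replicate 1 (0.0914), uninduced replicate 2 (0.099), induced replicate 2 (0.119), uninduced replicate 3 (0.051) or induced replicate 3 (0.126). It held in 10 of those 20 alternatives. Prkcb, a protein kinase C, gave -3.90, -2.89 and -2.63 in induced cells and -6.49, -5.72 and -6.60 in uninduced cells, where no array was well above background. It was at least 4.81-fold higher in induced cells, a bound of the processed signal. The bound is relative to the lowest signal well above background on each uninduced array, or the probe's own if higher. The adjusted p from limma, 0.0073, is for the change of 3.13 in the readings above, and the bound was not tested. Normexp gave a change of 0.86 (adjusted p = 0.0486).

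Rasgrp3, an activator of Ras, read 0.46, 0.90 and 2.39 on the induced arrays, against 2.08, 2.66 and 3.34 on the uninduced ones, and differed by -1.45 (SE 0.55, adjusted p = 0.195). The groups overlapped, although Rasgrp3 was lower on the induced array of every replicate, and with the block the adjusted p was 0.0103. Plek, a protein kinase C substrate of platelets, gave 1.39, 2.52 and 1.69 in induced cells and 0.26, 1.23 and 0.11 in uninduced cells, a difference of 1.33 (adjusted p = 0.117), with 0.00545 as the adjusted p with the block. The catalytic subunits Pik3cd and Pik3cg of phosphoinositide 3-kinase differed by -0.03 (adjusted p = 0.95) and 0.86 (adjusted p = 0.378). With the block Pik3cg had an adjusted p of 0.0214. Rasgrp2 differed by 0.69 (adjusted p = 0.442), and had an adjusted p of 0.0388 with the block. Prkcq, Pik3r5 and Rasgrp1 were not tested, being well above background on 2, 1 and 0 induced arrays and 1, 0 and 0 uninduced ones. Of the membrane proteins, Laptm5 differed by 0.88 (adjusted p = 0.233), and Tnfrsf1b was well above background on no array.

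**Figure D3:**
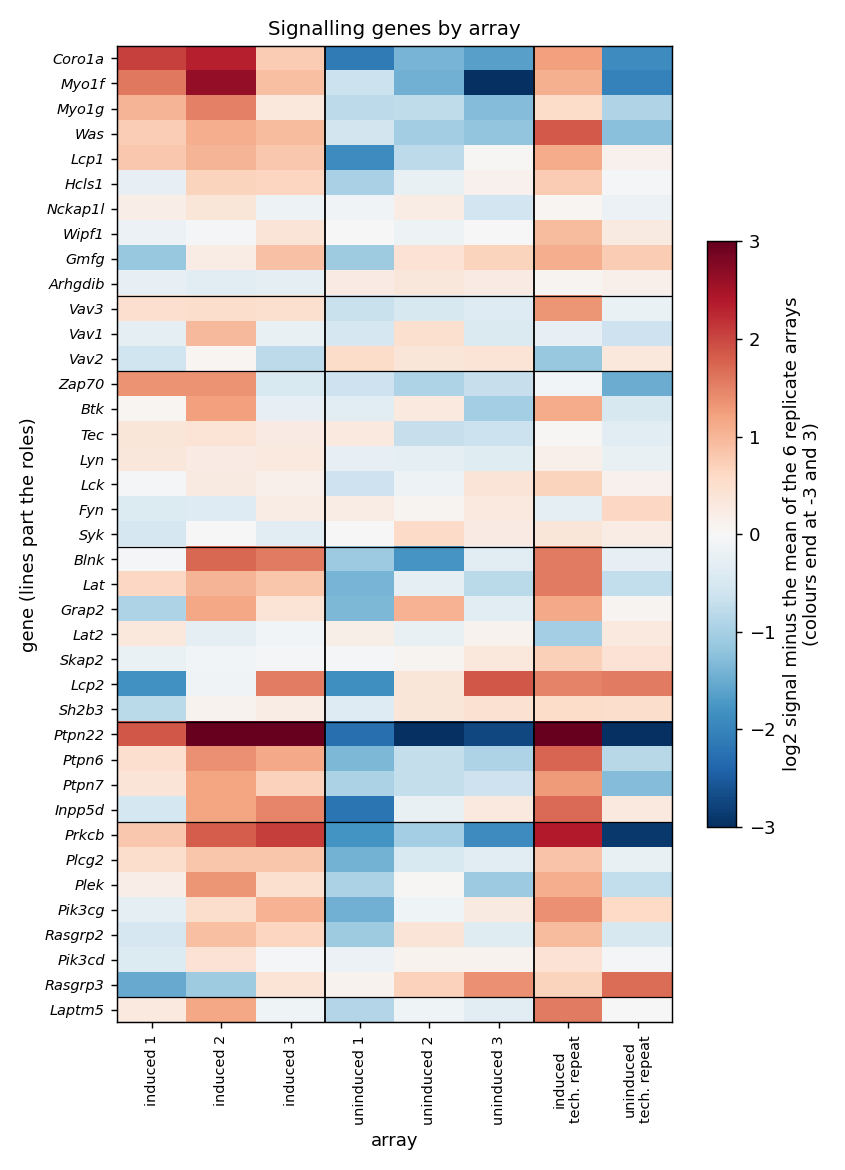
Level of each of the 39 genes tested on the 6 replicate arrays and the technical repeats, induced left of uninduced in each, as the distance from the gene's own mean on the log2 scale. Genes that rose are high on the induced arrays, and many others are low on replicate 1 in both groups.

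Many members varied more between replicates than between groups. In 18 of 39 (46.2%) replicate 1 was the lowest in both groups, against 20.7% of 14498 genes, and of these 18 genes 11 had a replicate range in both groups above their change. Lcp2 is an example, with -5.26, -3.53 and -1.90 on the induced arrays and -5.26, -3.07 and -1.56 on the uninduced ones. In all, 15 members had a replicate range above the change in both groups. The counts of 11 and 15 were not made over all genes, so neither is shown to be particular to the members. The smaller of the 2 group ranges was 3.35 for Lcp2, 2.09 for Grap2, 1.99 for Inpp5d and 1.75 for Gmfg. Replicate 1 was also the lowest in both groups in 26 of 39 cell type markers tested. Among them were 9 of 9 endothelial, 5 of 6 blood progenitor, 4 of 4 red cell and 4 of 5 mesenchymal markers. It was the lowest in 1 of 6 macrophage and granulocyte and 0 of 3 T cell markers. The part of these cell types in the low levels of replicate 1 was not tested. Between the groups, 16 members did not overlap with higher induced arrays and 3 with lower ones (Arhgdib, Vav2 and Skap2), against 19.6% and 8.71% of all genes; on the spike-in scale the mean difference of these 3 had the opposite sign. The median change was 0.58, 0.89 and 0.76 in replicates 1, 2 and 3 and 0.99 between the technical repeats.

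Members were also set against a close relative, listed as broadly expressed, as the log2 ratio of the pair within each array. No array scale can alter this ratio. How broadly the relatives are expressed was not measured here. Of 22 pairs, 20 were measured, and the ratio was higher on every induced array in 7 and lower in 1, with 12 overlapping. Among the 12, the ratios of Inpp5d, Nckap1l, Hcls1, Laptm5 and Pik3cd to their relatives were higher on the induced array of each replicate. The Sh2b3/Sh2b1 ratio was lower on each. These differences within replicates were not tested. Each separated pair had an exact permutation p of 0.1 (two-sided), the smallest 3 against 3 arrays can give, and 0.25 after adjustment over the 20 pairs, so none passed. The Coro1a/Coro1b ratio was 1.27, 0.98 and -0.26 on the induced arrays, against -2.96, -2.35 and -3.15 on the uninduced arrays, a difference of 3.49. For Was/Wasl it was -0.49, -0.37 and -0.07 on the induced arrays, against -2.23, -2.79 and -2.89 on the uninduced arrays, a difference of 2.33. Both ratios were above all uninduced ones on each induced array. Ptpn6/Ptpn11 read -4.23, -3.50 and -3.79 on the induced arrays, against -6.12, -5.27 and -5.63 on the uninduced arrays (difference 1.83). For Plcg2/Plcg1 the values were 8.54, 7.32 and 8.24 on the induced arrays, against 5.82, 5.87 and 5.64 on the uninduced arrays (difference 2.26). The Prkcb/Prkca ratio was at least 2.72-fold higher in induced cells, a bound since Prkcb was near background in uninduced cells, and its groups were also apart at that bound. The differences of Myo1f/Myo1e and Lcp1/Pls3 were 2.81 and 1.98, and Arhgdib/Arhgdia was lower by a difference of -0.55. The ratio of Lyn/Src, the other pair with a rising member, differed by 0.46 and overlapped. Of the 20 relatives, 1 rose, Prkca (0.82, adjusted p = 0.0255), 0 fell and 19 did not pass, with changes from -0.80 to 1.22 and a median of 0.04.

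**Figure D4:**
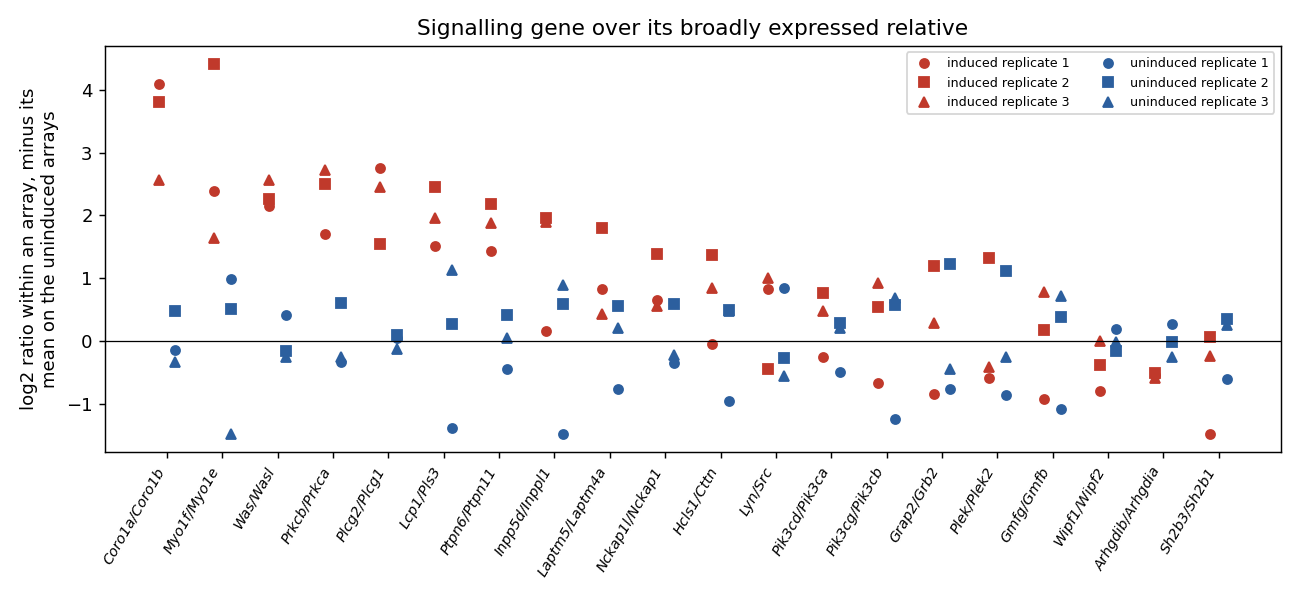
Log2 ratio of each member to its listed relative within each array, minus its mean on the uninduced arrays, for the 20 pairs measured, with induced arrays (red) left of uninduced arrays (blue). The 7 pairs with all induced points above the uninduced ones include Coro1a/Coro1b, which differed by 3.49, and Prkcb/Prkca, whose uninduced points rest on Prkcb signals near background.

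A second list of 60 other signalling genes of leukocytes gives the setting. It too was chosen with earlier results of these data known, so its share is a description and not a test. Of 48 tested, 12 rose (25.0%, against 4.14% of all genes), 0 fell and 18, or 37.5%, had an unadjusted p under 0.05, with a median change of 0.25. With the replicate block 18 rose and 4 fell. Of the 5 largest, 4 are given here, Arhgap30, Dok2, Sla2 and Dock8. Arhgap30, a GTPase-activating protein, was well above background on 3 induced and 0 uninduced arrays and was at least 9.32-fold higher. Its adjusted p from limma, 0.00261, is for a change of 5.19 in the signals as read, and the bound was not tested. Dok2, an inhibitory adaptor, changed by 4.38 (SE 0.23, adjusted p = 0.000759). The adaptor Sla2 changed by 3.31 (SE 0.73, adjusted p = 0.0492), with probes from 0.47 to 3.31, and Dock8, an exchange factor, by 2.37 (SE 0.47, adjusted p = 0.0347).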

How the data were processed

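Cy3-labelled RNA of each sample was read on its own Agilent 1-colour array. The authors deposited Feature Extraction output with processed and median spot intensity; the software was 10.7.3.1 per the file headers, while the submitters' processing notes give 10.7.1.1, and name limma. A second deposited file held log2 values per spot, with normalization not given in the sources used here; 6 of its 8 columns tracked an array other than the one they were named for, so it served as an alternative. From the scanner files, control and outlier spots (114 to 246 per array) were left out, each array's 75th percentile was subtracted from its log2 processed signals, and a probe's spots were averaged. RefSeq accessions gave 1 symbol to 26582 of 55681 probes (GRCm38.p6 names, none for 29099). A probe was kept if well above background on all 3 arrays of at least 1 group, and each of 14519 genes was read from its brightest kept probe.

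The comparison of induced with uninduced arrays used limma 3.58.1 in R 4.3.3 (lmFit, then eBayes; two-sided), with p-values adjusted by Benjamini-Hochberg over all genes tested, a threshold of 0.05, and a procedure tested on simulated data. Every adjusted p is from this fit unless the block or another setting is named. Alternatives were the replicate block, normexp on median signal and background with an offset of 50 (the files hold no mean signal), quantile normalization, other centrings, probe filters, leaving out each array, averaging in technical repeats, the slide row as a block and the deposited table. All arrays came from 1 slide and 1 scan. Same-numbered arrays deviated together from their group means (correlations 0.646, 0.451 and 0.431, against -0.475 to 0.126 for other pairs), and since all 3 were over 0.1 the numbers were taken to pair the samples. The main fit does not use this pairing, and the fit with the replicate block does. Genes named with values in every array are the members past the threshold, the 6 brightest that were not, and others where a role group needs them; of the second list, the 5 largest changes, of which 1 is not reported here. The members and lists were chosen with earlier results of these data known.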

Additional observations from a re-analysis of the deposited data

How the results depend on the processing

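Members that rose (12) numbered 20 with the replicate block, 16 and 13 with technical repeats averaged into replicate 1 and 2, 15 with spike-in scaling, 8 with no filter, 5 on slide row 1 alone (replicates 1 and 2), 6 to 12 without 1 array (6 without uninduced replicate 2, 7 without induced replicate 2) and 0 with the deposited table read by column name. In that reading limma called 0 members, with 1 at an unadjusted p under 0.05, and 0 genes rose or fell in all (223 unadjusted). There Was (-0.020), Ptpn7 (-0.033), Was/Wasl (-0.29) and Plcg2/Plcg1 (-0.094) turned in sign, while matching columns to the array they track gave 11 members rising. Members that fell (0) numbered 3 with the block, 1 with normexp, 1 with quantile normalization, 1 with the repeats averaged into replicate 2, 1 with the slide row as a block and 0 to 1 without 1 array. Their median change of 0.70 became 0.53 with normexp, 0.85 with median centring, 1.83 with spike-in scaling, 0.36 by column name and 0.56 to 1.02 without 1 array. All genes that rose (601) numbered 1360 with the block, 356 with no filter, 1038 and 1047 with repeats averaged into replicate 1 and 2, 232 on row 1 alone and 273 to 541 without 1 array. Those that fell (314) numbered 987, 178, 586 and 573, 109 and 105 to 283 in the same settings, and 11 with spike-in scaling. Other signalling genes that rose (12) numbered 18 with the block, 16 and 14 with repeats averaged into replicate 1 and 2, 15 with spike-in scaling, 7 with no filter, 6 on row 1 alone, 0 by column name (3 unadjusted) and 6 to 8 without 1 array. Those that fell (0) numbered 4 with the block, 1 with median centring, 1 and 2 with repeats averaged into replicate 1 and 2, and 0 to 1 without 1 array. Fewer arrays enter the fits without an array and on row 1. Reading by column name mixed the groups. There the columns named induced replicates 1, 2 and 3 tracked uninduced replicate 2, the uninduced technical repeat and induced replicate 2. The column named uninduced replicate 3 tracked induced replicate 1. The causes of the other moves were not tested. Signals not well above background limit Prkcb, Ptpn22 and Myo1f, whose changes shrank with normexp.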
